A study of Homo sapiens with 12 samples.

Results

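The knockdown of IGF2BP1 in Hep-G2, a human liver tumor cell line, was examined in the genes whose FPKM (fragments scaled by gene length and library size) reached 0.1 or more in 3 or more of the 6 libraries. These were 19436 of the 58174 genes listed, and 12823 of the 19799 protein-coding ones. The study depleted IGF2BP1 in tumor-derived cell lines to find RNAs that depend on it, and the libraries used here were made from poly-A RNA, 6 each of Hep-G2 and the neuroblastoma line BE(2)-C. The siC group held 3 libraries of Hep-G2 cells that received a control siRNA based on a worm microRNA (CEL-miR-239b), and the siI1 group held 3 libraries of Hep-G2 cells that received a pool of siRNAs directed against IGF2BP1. Both siRNAs were used at 15 nM, against 25 nM in BE(2)-C, and RNA was taken 72 h after transfection. The 3 libraries of a group are biological replicates per the methods, but how the cultures were kept apart is not said, and the p-values measure the spread between these libraries. Reads on genes numbered 13465944 to 15176939 per siC library and 13398903 to 14858343 per siI1 library.

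IGF2BP1 is an oncofetal RNA-binding protein: it is abundant in the embryo, mostly silent in adult tissues and found again in many tumors, where it binds mRNAs and keeps bound transcripts from decay. The liver cell makes most proteins of the blood plasma, packs lipids into lipoproteins, synthesizes cholesterol and bile acids, and oxidizes and conjugates foreign compounds. Liver tumor cells keep a part of this program beside features of the fetal liver and of dividing cells.

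The depletion itself was read first. The FPKM of IGF2BP1 (ENSG00000159217, chromosome 17) was 48.5, 46.6 and 50.8 under siC and 12.6, 10.7 and 10.7 under siI1. No siI1 library reached the siC range, and the log2 fold change of siI1 over siC, on log2(FPKM + 0.1), was -2.10 (SE 0.08, adjusted p = 7.8e-06 from limma). In BE(2)-C the change was -2.11, and the difference between the lines was 0.02 (SE 0.09, adjusted p = 0.91 from limma), a difference in depletion that was not detectable. Of the paralogs, IGF2BP2 had a log2 fold change of -0.14 (SE 0.06, adjusted p = 0.11 from limma), with -0.08 without siI1_3, -0.05 with median centring and -0.31 with equal sums of FPKM, where it passed the threshold. IGF2BP3 had one of -0.11 (SE 0.09, adjusted p = 0.38 from limma) with all libraries; it passed the threshold without siI1_1 (the first siI1 library), at -0.21, and without siI1_1 and siC_2, at -0.24, and was at -0.04 without siI1_2, -0.08 without siI1_3, -0.02 with median centring and -0.28 with equal sums.

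The identity of the cells was checked with marker genes. All 10 hepatocyte markers were expressed, led by ALB, and their share of the reads was 3.62%, 3.42% and 3.51% under siC and 5.29%, 5.45% and 5.41% under siI1. Of these markers, 7 were higher and 2 lower (AFP and TTR) upon knockdown. The 10 neuroblastoma markers held a share of 1.98e-05%, 5.94e-05% and 2.06e-05% under siC and 7.46e-05%, 4.04e-05% and 4.34e-05% under siI1, 1 of them was tested (DBH, log2 fold change 0.38, adjusted p = 0.54 from limma), and HAND2, CHGA, STMN2 and ELAVL4 were at 0 in every library. Bile duct markers counted 5 tested genes, 3 lower and 1 higher, and took a read share of 0.336%, 0.362% and 0.346% under siC and 0.191%, 0.215% and 0.217% under siI1, with SPP1 the most abundant. Among the 8 endothelial markers 2 were tested, and the list took a read share of 0.00179%, 0.00173% and 0.00175% under siC and 0.000567%, 0.000471% and 0.000419% under siI1, nearly all of it LYVE1; ERG was at 0 in the siC libraries. Of 9 stellate cell and fibroblast markers 5 were tested and ACTA2 was higher; their share was 0.00891%, 0.00896% and 0.00893% under siC and 0.0263%, 0.0325% and 0.0322% under siI1, with ACTA2 the most abundant and DCN near 0. The 9 blood and immune markers, 5 of them tested, 1 lower and 2 higher, held a share of 0.254%, 0.253% and 0.256% under siC and 0.0364%, 0.0396% and 0.0391% under siI1, with LYZ (lysozyme) the most abundant and PTPRC at 0 under siC and near 0 under siI1. The FPKM of LYZ, picked after its value was seen, was 1330.3, 1332 and 1355 under siC and 124, 128 and 128 under siI1. The part of other cells in these values was not tested, and in bulk RNA fewer cells of a type and less RNA per cell cannot be told apart.

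A library stood apart from its group. Between siI1_1 and siI1_2, the chi-square of the reads over genes was 15.51 per degree of freedom, and between siI1_1 and siI1_3 it was 16.05, against 2.03 between siI1_2 and siI1_3. Pairs of siC libraries gave 2.38 to 5.84, the larger values with siC_2. Across 4689 genes with a mean FPKM of at least 10, the deviation of each library from the others of its group was correlated with log2 gene length. The correlation was 0.37 for siI1_1 and -0.37 for siC_2. It was 0.26 for siC_1, 0.16 for siC_3, -0.29 for siI1_2 and -0.29 for siI1_3. These values are descriptions across genes, which are not independent replicates. The 3206 shortest protein-coding genes lay 0.07 above the siC mean in siI1_1 (median log2 ratio), 0.23 in siI1_2 and 0.25 in siI1_3, and the 3206 longest at -0.08, -0.25 and -0.23. Short genes were thus higher and long genes lower in each siI1 library, least so in siI1_1. Genes called lower had a median length of 5586 nt, those called higher one of 4033 nt, and those not past the threshold one of 4780 nt. The part of gene length in the results was not tested; where leaving out 1 library, or siI1_1 and siC_2 together, moved the median of a list by over 1.5 times or turned its sign, or moved a count so by 3 genes or more, the values stand beside the list.

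**Figure D1:**
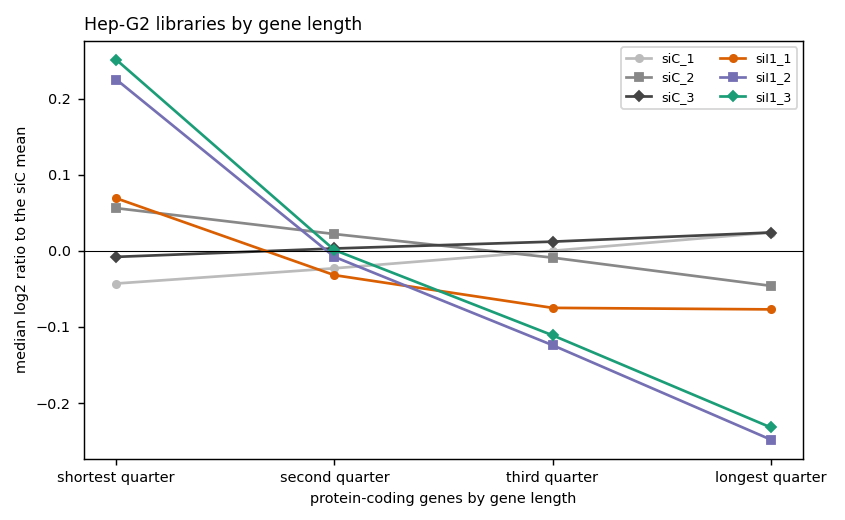
Median log2 ratio of each Hep-G2 library to the mean of the siC libraries (y axis) for protein-coding genes in 4 classes of gene length (x axis), 1 line per library. In the shortest class siI1_2 and siI1_3 lie at 0.23 and 0.25 and siI1_1 at 0.07, and in the longest class at -0.25, -0.23 and -0.08.

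Over all tested genes, 4463 (23%) were lower and 4250 (21.9%) higher upon knockdown at an adjusted p below 0.05 in limma. Among protein-coding genes, 3915 of 12823 (30.5%) were lower and 3247 (25.3%) higher, with a median log2 fold change of -0.04. A log2 change of 1 or more was seen in 977 lower and 951 higher protein-coding genes. Values in brackets after gene names are log2 fold changes. Higher genes were 45.3% of the protein-coding calls, 32.2% when libraries were scaled to equal sums of FPKM, and 54.3% with median centring. The equal sums moved the median of protein-coding genes to -0.20, a shift that the list medians below share. Each list is therefore read against these shares and this median; the 36 lists hold 1199 distinct genes, of which 1107 were tested, 347 lower and 437 higher.

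The protein-coding genes with the largest changes were taken among those with a mean FPKM of 10 or more in the higher group. AKAP12, a scaffold protein that anchors protein kinase A, had an FPKM of 57.7, 58.1 and 63.1 under siC and 3.82, 2.83 and 3.03 under siI1, a log2 fold change of -4.18 (SE 0.11, adjusted p = 2.8e-06 from limma). TGFBR3, a co-receptor for TGF-beta, fell (-3.83), TNS4 of focal adhesions (-3.80) and the metallothionein MT1G (-3.51), the last with near-identical family members that can share its reads. KNG1, the precursor of bradykinin, was at an FPKM of 0.431, 0.392 and 0.508 under siC and 20.1, 20.7 and 21.3 under siI1, from 20 to 1127 reads per library. Every siI1 library lay far above every siC library, and the log2 fold change was 5.26 (SE 0.10, adjusted p = 1.4e-06 from limma). HAMP encodes hepcidin, the hormone that limits iron export, and its FPKM was 1.63, 1.97 and 1.87 under siC and 40.9, 45.9 and 48.2 under siI1, a log2 fold change of 4.55 (SE 0.10, adjusted p = 1.4e-06 from limma). AFM (afamin, a vitamin E carrier of plasma) changed by 3.69, WNT11 by 3.17 and the matrix genes COL16A1 and OLFML3 by 3.36 and 3.14. These genes were picked by the size of their change, so nothing is read from the separation of their libraries between the 2 groups.

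**Figure D2:**
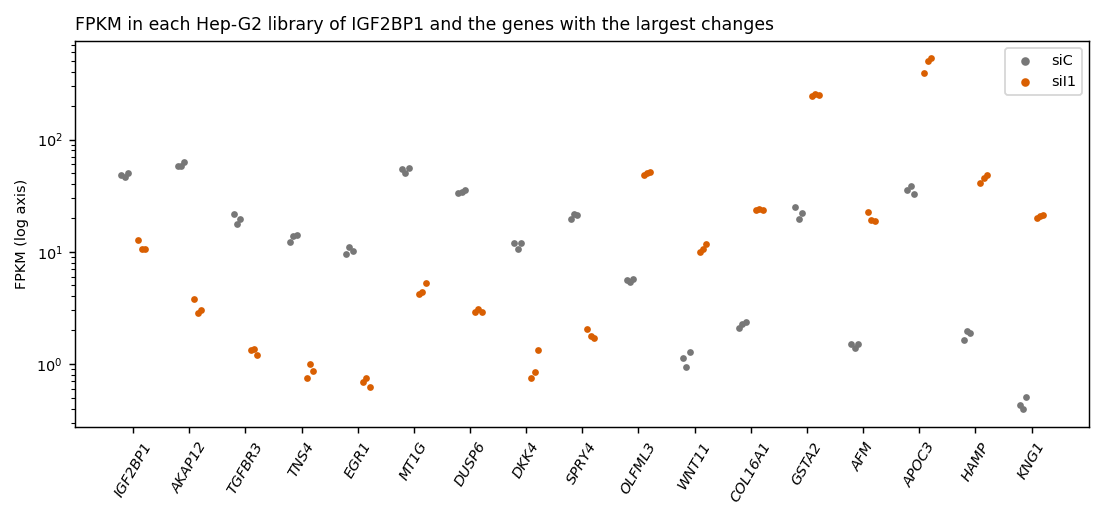
FPKM (log axis) of IGF2BP1 and of the 8 protein-coding genes with the largest changes in each direction, 1 point per library, grey for siC and orange for siI1. The genes beside IGF2BP1 were picked by the size of their change, so nothing is read from the separation of the groups. KNG1 goes from 0.43, 0.39 and 0.51 to 20.1, 20.7 and 21.3.

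Plasma protein genes came next. The 120 genes of the plasma protein lists together (carriers, coagulation, complement, apolipoproteins) held a read share of 5.37%, 5.2% and 5.26% under siC and 8.14%, 8.61% and 8.59% under siI1, with no overlap between the groups. Of the plasma carriers and acute phase proteins, 20 of 30 tested were higher and 7 lower, with a median log2 fold change of 0.74. Albumin (ALB), the main carrier of plasma, had an FPKM of 3211, 3085 and 3170.4 under siC and 5916, 6209 and 6125 under siI1. All siI1 libraries exceeded all siC libraries, and the log2 fold change was 0.95 (SE 0.16, adjusted p = 0.0032 from limma); it lost the threshold without the filter. Transferrin (TF), which carries iron, changed by 1.93, hemopexin (HPX), which binds free heme, by 2.81, and fetuin-B (FETUB) by 2.70. The retinol carrier RBP4 changed by 1.45, and the acid glycoproteins ORM1 and ORM2, near-identical copies whose reads may be split, 1.99 and 1.88; TF, RBP4, ORM1 and ORM2 were picked after their values were seen. On the falling side stood SERPINA3 at -2.57 and ceruloplasmin (CP, a copper carrier) at -2.18, both under an FPKM of 5. CRP, SAA1 and SAA2, the classical acute phase proteins, did not pass the filter in either group.

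Coagulation and fibrinolysis genes counted 4 lower and 12 higher of 23 tested, with a median of 0.36, or 0.74 with the stricter filter of an FPKM of at least 1. Beside KNG1, F13B (the carrier subunit of factor XIII) changed by 1.82, and picked after their values were seen, the clotting factors F7, F10 and F11 by 1.72, 1.42 and 1.32 and antithrombin (SERPINC1) by 1.12. The urokinase gene PLAU fell (-2.49) and TFPI, the inhibitor of tissue factor, (-1.65). The FPKM of TFPI was 30.9, 31.5 and 31.6 under siC and 9.87, 9.7 and 10.1 under siI1, without overlap. The most abundant member, SERPINA5, was at an FPKM of 167, 171 and 168 under siC and 136, 152 and 152 under siI1, and its log2 fold change of -0.20 (SE 0.06, adjusted p = 0.036 from limma) lost the threshold under median centring, without the filter, without the variance trend and without siC_1, siC_2, siC_3, siI1_2 or siI1_3. Complement genes were divided, with 7 lower and 11 higher of 25 tested and a median of 0.11, which turned to -0.06 with equal sums of FPKM and was 0.17 with the stricter filter, 0.17 without siC_1 and 0.16 without siI1_3. C1R, the protease that starts the classical pathway, changed by 2.27, its inhibitor SERPING1 by 1.29, and C3, the central and most abundant component, by 0.83 (SE 0.06, adjusted p = 9.8e-05 from limma). The lectin MBL2 fell (-2.84) and C7 (-2.72).

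Apolipoproteins and genes of lipoprotein handling had the highest median of the lists, 1.22, with 5 lower and 20 higher of 28 tested. APOC3, which slows the clearance of triglyceride-rich particles, had an FPKM of 35.4, 38.9 and 33 under siC and 394, 505 and 531 under siI1, a log2 fold change of 3.72 (SE 0.12, adjusted p = 4.9e-06 from limma). APOA1, the main protein of HDL and picked after its value was seen, was at an FPKM of 1189.6, 1335 and 1222 under siC and 3319.8, 4392 and 4604 under siI1 and changed by 1.70; its siI1_1 value was the lowest of the siI1 group, as it was for APOC3. APOA2, the second protein of HDL and the most abundant member with siC, went the other way, with an FPKM of 2334, 2721 and 2467 under siC and 1125, 1496 and 1545 under siI1 and a log2 fold change of -0.86 (SE 0.16, adjusted p = 0.0052 from limma). APOM, a carrier of sphingosine 1-phosphate, fell (-2.36) and CIDEC, a lipid droplet protein, (-1.54). The read share of the list was 1.83%, 1.72% and 1.8% under siC and 2.45%, 2.55% and 2.63% under siI1.

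Transcription factors that define hepatocytes moved in both directions, 8 lower and 10 higher of 26 tested (10 lower and 6 higher under equal sums), with a median of 0.06 that turned to -0.11 with equal sums and to -0.01 with the stricter filter, and was 0.10 without siC_2 and 0.03 without siC_3. CEBPA, which drives hepatocyte differentiation and restrains division, had an FPKM of 44.2, 46.3 and 46.3 under siC and 153, 169 and 173 under siI1, a log2 fold change of 1.85 (SE 0.06, adjusted p = 5.1e-06 from limma). The bile acid receptor NR1H4 (FXR) changed by 0.94, while NR0B2 (SHP), which FXR induces, was at an FPKM of 79.9, 94.7 and 86.6 under siC and 21, 23.5 and 22.9 under siI1 and fell (-1.95). ONECUT2 fell (-1.56), and HNF4A, picked after its value was seen, changed by 0.21. Hepatoblast and oncofetal markers were also mixed, with 8 lower and 7 higher of 20 tested (6 lower and 7 higher under median centring) and a median of -0.17. The fetal growth factor IGF2 had an FPKM of 48.8, 51 and 53 under siC and 245, 267 and 279 under siI1 and rose, with a log2 fold change of 2.37 (SE 0.07, adjusted p = 3.0e-06 from limma). Alpha-fetoprotein (AFP) was at an FPKM of 1579, 1565 and 1544 under siC and 992, 1062 and 1065 under siI1 and changed, with a log2 fold change of -0.59 (SE 0.10, adjusted p = 0.0029 from limma). LIN28B, a blocker of let-7 microRNAs, and SOX4 fell (-1.38 and -1.19), and BEX1 rose (1.20).

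Cholesterol synthesis was among the most uniform lists, with 1 lower and 18 higher of 22 tested and a median of 0.79. MVK and MVD, enzymes of the mevalonate steps, were at an FPKM of 9.28, 10.7 and 9.23 under siC and 26.5, 28.8 and 29.1 under siI1 and at an FPKM of 45.9, 51 and 46.1 under siC and 121, 144 and 155 under siI1. In both, each siI1 library lay above each siC library, with log2 fold changes of 1.52 (SE 0.08, adjusted p = 2.0e-05 from limma) and 1.55 (SE 0.10, adjusted p = 4.9e-05 from limma). The regulator SREBF2, picked after its value was seen, changed by 1.04. The desaturase SC5D was the member called lower, at -0.63 (SE 0.08, adjusted p = 8.2e-04 from limma). In BE(2)-C, 16 of the 22 genes were lower by limma, with a median of -0.33, against 19.9% lower and 15.5% higher of 12600 protein-coding genes tested there, with a median of -0.01. The test of the difference between the lines was positive for 20 of the 22 genes, against 2487 of 11084 protein-coding genes, and 49.9% of those differed in either direction. The siRNA concentrations differed between the lines, and each table was normalized on its own.

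**Figure D3:**
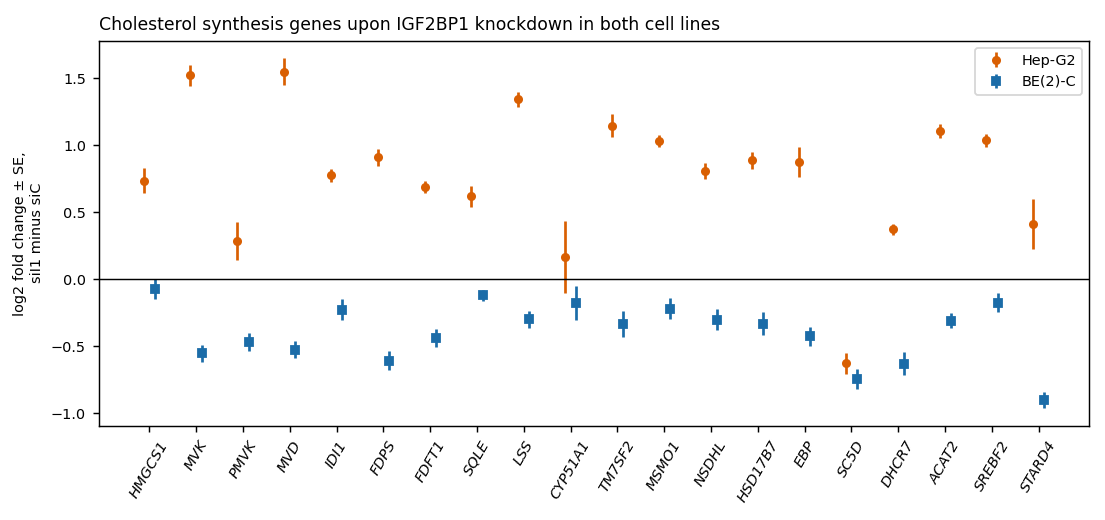
Log2 fold change of siI1 over siC (y axis, bars are standard errors) for 20 of the 22 tested cholesterol synthesis genes (x axis) in Hep-G2 (orange circles) and BE(2)-C (blue squares). In Hep-G2 19 of the 20 point estimates lie above 0, SC5D below, and in BE(2)-C the median of the 22 is -0.33.

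Fatty acid and triglyceride synthesis counted 5 lower and 15 higher of 28 tested (8 lower and 13 higher under equal sums), with a median of 0.45, or 0.32 without siI1_1 and 0.29 without siI1_1 and siC_2. GPAM, which adds the first fatty acid to glycerol phosphate, had an FPKM of 16.4, 13.2 and 14.9 under siC and 59.2, 47.8 and 47.7 under siI1 and a log2 fold change of 1.79 (SE 0.11, adjusted p = 4.4e-05 from limma). ACSS2, which makes acetyl-CoA from acetate, changed by 1.30 and the desaturase SCD, the most abundant member, by 0.57, whereas LPIN2 and the acyl-CoA synthetase ACSL5 fell (-1.05 and -0.95). Fatty acid oxidation and ketogenesis had 4 lower and 19 higher of 29 tested and a median of 0.53. The carnitine carrier SLC25A20 was at an FPKM of 19.3, 15.7 and 18 under siC and 40.6, 47.1 and 43.8 under siI1 and rose, with a log2 fold change of 1.31 (SE 0.09, adjusted p = 6.3e-05 from limma), with HADH at 0.99 and HADHA, the most abundant, at 0.31. CPT2, which releases fatty acids from carnitine inside mitochondria, fell (-0.87) and the coactivator PPARGC1A (-1.12), both under an FPKM of 3. Bile acid synthesis and transport held 5 lower and 12 higher of 23 tested, with a median of 0.30 and a read share of 0.248%, 0.234% and 0.24% under siC and 0.229%, 0.206% and 0.203% under siI1. The share and the median differ in direction; ABCC2, a canalicular export pump and the most abundant member, was at an FPKM of 195, 179 and 190.1 under siC and 107, 74.8 and 78 under siI1, with -1.13 (SE 0.14, adjusted p = 6.6e-04 from limma). The reductase AKR1D1 rose (1.21); of the exporter pair of the basolateral membrane, SLC51A rose (1.68) and SLC51B fell (-1.93).

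Enzymes of drug and alcohol metabolism followed. Phase 1 genes counted 4 lower and 23 higher of 35 tested, with a median of 0.53, and took a read share of 0.324%, 0.327% and 0.326% under siC and 0.587%, 0.584% and 0.574% under siI1. ALDH1A1, the most abundant, had an FPKM of 221, 223 and 220.4 under siC and 665, 630.1 and 626 under siI1 and a log2 fold change of 1.53 (SE 0.06, adjusted p = 1.1e-05 from limma). The alcohol dehydrogenases ADH1A and ADH1B, near-identical in sequence, were below an FPKM of 0.2 with siC and near 2 with siI1, where ADH1B was at 2.04, 2.02 and 2.09. Both passed the filter only through the siI1 libraries, so they could only be called higher. ADH1A had 1 to 69 reads per library. FMO5 and CYP2S1 fell (-1.72 and -1.72). Of the conjugating enzymes of phase 2, there were 9 lower and 15 higher of 33 tested, with a median of 0.29, or 0.19 with a pseudocount of 1. The glutathione transferase GSTA2, close in sequence to GSTA1, had an FPKM of 24.9, 19.5 and 21.9 under siC and 247, 255 and 249.8 under siI1, a log2 fold change of 3.50 (SE 0.09, adjusted p = 2.5e-06 from limma). ACSM2A rose (2.62), while the glucuronosyltransferases UGT2B7 and UGT2B11, of a family with shared sequence, fell (-1.45 and -1.84), and GSTO1, the most abundant, changed by -0.80.

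Urea cycle and nitrogen genes had 5 lower and 8 higher of 19 tested (9 lower and 5 higher under equal sums), and a median of -0.07 that turned to 0.02 with median centring and was -0.05 without siC_1, -0.04 without siC_2, 0.00 without siI1_2 and -0.02 without siI1_1 and siC_2. The transaminase GOT1 was at an FPKM of 91.6, 91.3 and 95.2 under siC and 26.5, 30.9 and 32.1 under siI1 and fell, with a log2 fold change of -1.64 (SE 0.08, adjusted p = 1.7e-05 from limma), and the ammonia transporter RHBG rose (1.57), GPT (1.04) and GLUD1 (0.88). Amino acid catabolism and one-carbon metabolism counted 9 lower and 18 higher of 38 tested, with a median of 0.29, or 0.20 with a pseudocount of 1. GNMT, which methylates glycine, rose (2.41), UROC1 (2.04) and HPD, of tyrosine breakdown and the most abundant, (1.19), whereas CTH, which makes cysteine, fell (-1.75) and KYNU (-1.55). UROC1 was low, at an FPKM of 0.155, 0.176 and 0.224 under siC and 1.04, 1.22 and 0.944 under siI1, from 8 to 59 reads per library. For gluconeogenesis and glycogen the counts were 8 lower and 5 higher of 19 tested (9 lower and 3 higher under equal sums, 6 lower and 8 higher under median centring) and the median -0.24, or 0.03 with the stricter filter, -0.07 with a pseudocount of 1 and -0.13 without siI1_2. GCKR, the regulator of glucokinase, fell (-1.62), the branching enzyme GBE1 (-1.08) and the phosphorylase PYGB (-0.64), and the liver phosphorylase PYGL rose (0.58); PPP1R3G, at 0.65, lost the threshold under equal sums, without siI1_1 and siC_2 and without siC_1 or siI1_2. Glycolysis and glucose uptake had 11 lower and 6 higher of 29 tested, with a median of -0.10. Under equal sums there were 15 lower and 5 higher, with a median of -0.27, and median centring gave a median of -0.01. The median was -0.06 without siC_2, -0.03 without siI1_1 and -0.03 without siI1_1 and siC_2. Without siI1_1, 10 were higher. The glucose transporter SLC2A1 was at an FPKM of 278, 298 and 299.7 under siC and 33.3, 35 and 37.5 under siI1, a log2 fold change of -3.05 (SE 0.06, adjusted p = 1.4e-06 from limma). The transporter SLC2A3 was at an FPKM of 56, 58.9 and 56.3 under siC and 157, 157 and 162 under siI1 and rose, with a log2 fold change of 1.48 (SE 0.05, adjusted p = 4.9e-06 from limma). The hexokinase HKDC1 fell (-3.06) and ALDOC rose (1.93); GAPDH, at 0.35, lost the threshold under equal sums, without the filter, without the variance trend and without siC_1, siC_2, siC_3, siI1_2 or siI1_3.

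Iron and heme genes counted 6 lower and 15 higher of 26 tested, with a median of 0.41. Beside HAMP, TMPRSS6, a protease that restrains hepcidin, had an FPKM of 2.41, 2.52 and 1.99 under siC and 18.3, 20.5 and 20.5 under siI1 and rose, with a log2 fold change of 3.05 (SE 0.10, adjusted p = 5.3e-06 from limma). The transferrin receptor TFRC was at an FPKM of 58.4, 52.1 and 58.8 under siC and 26, 21 and 21.6 under siI1 and fell, with a log2 fold change of -1.30 (SE 0.10, adjusted p = 7.8e-05 from limma), and the metal transporter SLC39A14 fell (-2.05). Ferritin light chain (FTL), the most abundant, had a log2 fold change of 0.56 (SE 0.21, adjusted p = 0.062 from limma), not past the threshold, and passed it in 8 of the alternatives, at 0.67 without siI1_1. Antioxidant and NRF2 target genes were split evenly, 12 lower and 12 higher of 33 tested (17 lower and 10 higher under equal sums, 10 lower and 14 higher under median centring), with a median of -0.04 that turned to 0.06 with median centring and was -0.07 without siC_1, -0.02 without siC_2, 0.02 without siI1_1, -0.08 without siI1_3 and 0.07 without siI1_1 and siC_2. SLC7A11, the cystine importer, was at an FPKM of 20.0, 17.5 and 20.0 under siC and 4.41, 2.74 and 2.73 under siI1 and fell, with a log2 fold change of -2.54 (SE 0.19, adjusted p = 7.7e-05 from limma), and TXNRD1 fell (-2.04). AKR1C2, of a family with near-identical copies, rose (1.19) and the plasma peroxidase GPX3 (1.13); PRDX1, the most abundant, had a log2 fold change of -0.04 (SE 0.09, adjusted p = 0.76 from limma), not past the threshold, its sign differing between scalings.

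**Figure D4:**
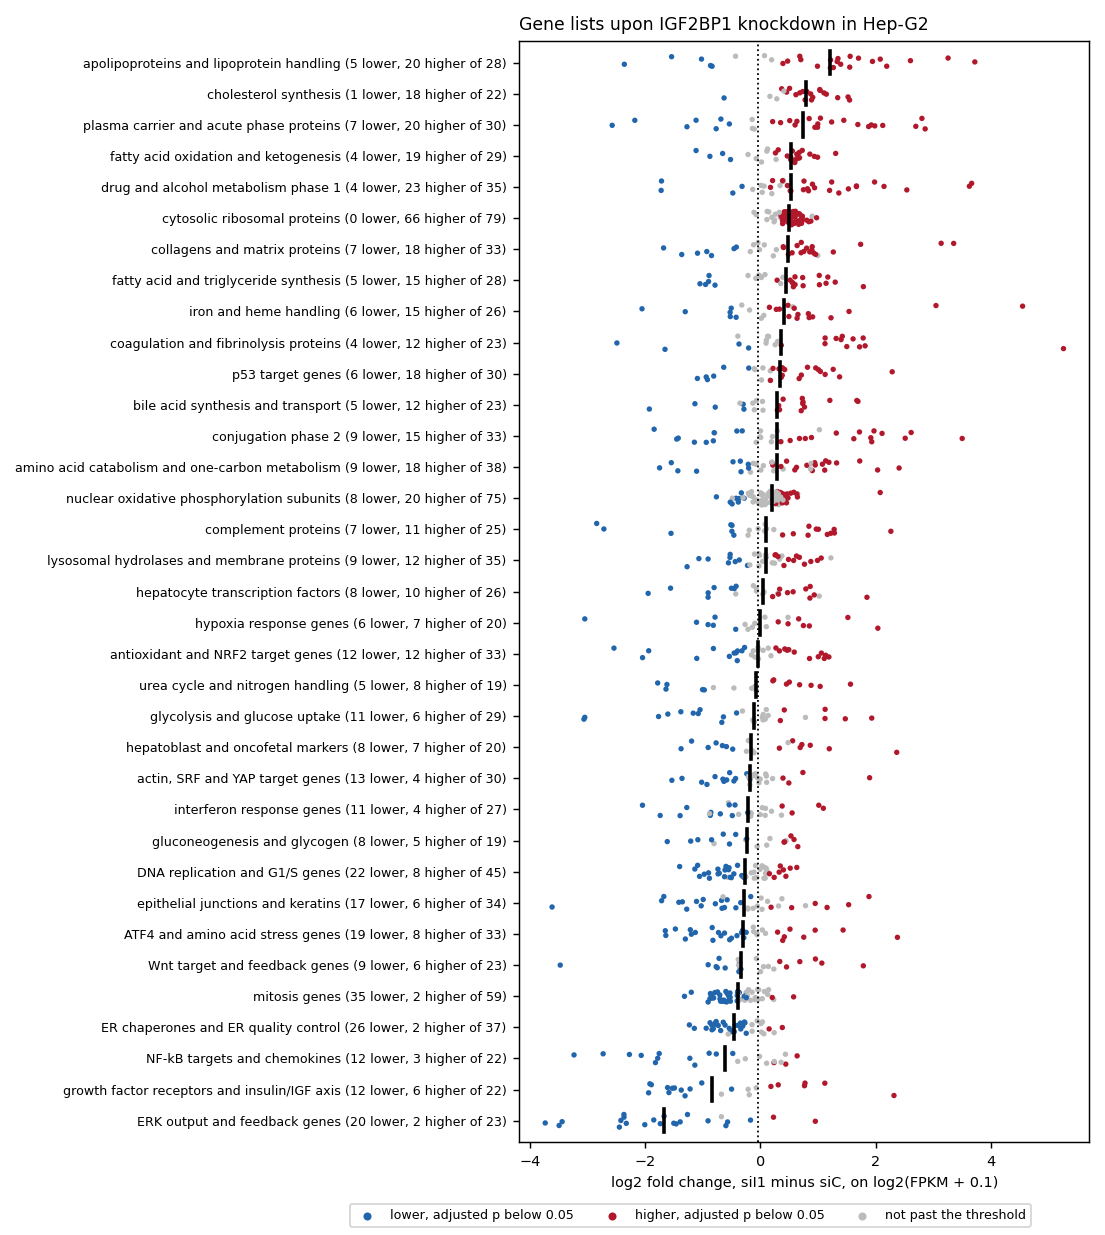
Log2 fold change of siI1 over siC (x axis) of each tested member of 35 gene lists (y axis, sorted by median, with counts), 1 point per gene, blue for lower, red for higher and grey for not past the threshold; black bars are medians and the dotted line is the median of protein-coding genes, -0.04. Medians run from -1.67 for ERK output genes to 1.22 for apolipoproteins.

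The lowest median of the gene lists, -1.67, was that of the output of the ERK pathway, the kinase cascade below growth factor receptors, with 20 lower and 2 higher of 23 tested. DUSP6, a phosphatase that ERK induces and that switches ERK off, had an FPKM of 33.6, 34.2 and 35.4 under siC and 2.91, 3.08 and 2.91 under siI1, a log2 fold change of -3.49 (SE 0.06, adjusted p = 1.4e-06 from limma). The early growth response factor EGR1 was at an FPKM of 9.59, 11.1 and 10.2 under siC and 0.683, 0.744 and 0.62 under siI1 and fell, with a log2 fold change of -3.73 (SE 0.11, adjusted p = 3.3e-06 from limma), and the feedback inhibitor SPRY4 (-3.44). JUN had an FPKM of 26.1, 29.4 and 28.1 under siC and 54.1, 54.5 and 53.7 under siI1 and rose, with a log2 fold change of 0.95 (SE 0.06, adjusted p = 3.3e-05 from limma); CCND1, the other higher member and the most abundant, rose (0.23) and lost the threshold under equal sums, at 0.06. The list took a read share of 0.233%, 0.241% and 0.238% under siC and 0.156%, 0.15% and 0.147% under siI1. In BE(2)-C the list had 6 lower and 6 higher of 20 tested, against 19.9% and 15.5% of protein-coding genes, and the difference between the lines was negative for 14 and positive for 2 of 20, against 3049 and 2487 of 11084 protein-coding genes; for DUSP6 it was -3.15 (SE 0.12, adjusted p = 2.9e-08 from limma). Growth factor receptors and the insulin/IGF axis had 12 lower and 6 higher of 22 tested, with a median of -0.85. The EGFR ligand HBEGF fell (-1.94), IGFBP1, a hepatic IGF-binding protein, was at an FPKM of 50.3, 63.3 and 57.9 under siC and 14.1, 15.7 and 15.2 under siI1 and fell, with a log2 fold change of -1.92 (SE 0.09, adjusted p = 1.7e-05 from limma), and IGFBP4 changed by -0.50, which lost the threshold without siC_2 or siC_3. ERBB2 rose (1.12) and IGFALS, the circulating partner of IGF, (2.32).

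**Figure D5:**
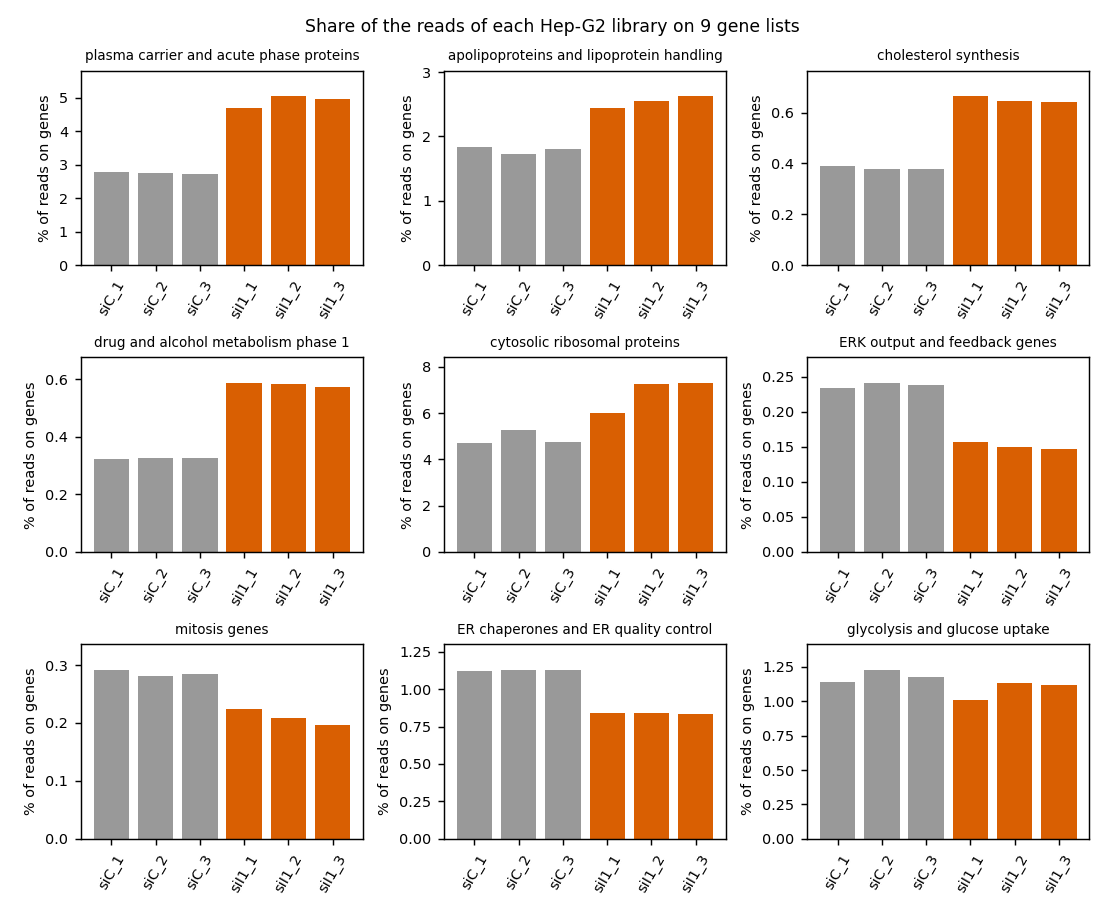
Share of the reads on genes (y axis, %) that 9 gene lists take in each Hep-G2 library (x axis), grey bars for siC and orange for siI1. Plasma carriers go from 2.73% to 2.79% with siC to 4.69% to 5.05% with siI1, and ERK output genes from 0.233% to 0.241% to 0.147% to 0.156%.

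Of mitosis genes, there were 35 lower and 2 higher of 59 tested, with a median of -0.39 and a read share of 0.292%, 0.281% and 0.285% under siC and 0.225%, 0.208% and 0.197% under siI1. ECT2, needed for cytokinesis, had an FPKM of 13.7, 14 and 13.7 under siC and 7.03, 4.87 and 4.77 under siI1, a log2 fold change of -1.32 (SE 0.15, adjusted p = 4.7e-04 from limma), with siI1_1 nearest to the siC libraries. INCENP fell (-1.20); CENPH rose (0.58) and NCAPD2, at 0.21, lost the threshold under equal sums, without the variance trend and without siC_1, siC_2, siC_3 or siI1_2, while CKS2, the most abundant, had a log2 fold change of 0.13 (SE 0.08, adjusted p = 0.22 from limma), not past the threshold, with -0.04 under equal sums. Genes of DNA replication and the G1/S step counted 22 lower and 8 higher of 45 tested (28 lower and 3 higher under equal sums, 18 lower and 10 higher under median centring), with a median of -0.26; 5 were higher without the filter, without siI1_2 or without siI1_3, and 4 without the variance trend, without siC_1 or without siC_3. RRM2, which makes deoxynucleotides, was at an FPKM of 27.4, 27.7 and 27.2 under siC and 12.7, 12.4 and 12.3 under siI1 and fell, with a log2 fold change of -1.14 (SE 0.05, adjusted p = 9.3e-06 from limma), and GINS3, at 38 to 221 reads per library, fell (-1.40). POLE2 and RPA3 rose (0.63 and 0.52), and PCNA, the most abundant, changed by 0.24, which lost the threshold under equal sums, without the filter, without the variance trend and without siC_1, siC_3, siI1_2 or siI1_3. In BE(2)-C, 37 of 59 mitosis genes and 34 of 45 replication genes were lower by limma, against 19.9% of protein-coding genes. Targets of p53 counted 6 lower and 18 higher of 30 tested, with a median of 0.34, or 7 lower and 11 higher with equal sums; the median was 0.20 without siI1_1 and siC_2. BTG2, which slows division, was at an FPKM of 12.8, 14.4 and 12.8 under siC and 65, 64.7 and 66.7 under siI1 and rose, with a log2 fold change of 2.29 (SE 0.06, adjusted p = 2.8e-06 from limma), the death gene BBC3 rose (1.38), and TNFRSF10A and PLK3 fell (-1.09 and -0.94). CDKN1A, the most abundant, had a log2 fold change of 0.17 (SE 0.06, adjusted p = 0.051 from limma), not past the threshold, passing it in 7 of the alternatives in Hep-G2, and its difference from BE(2)-C was 2.81 (SE 0.11, adjusted p = 3.5e-08 from limma).

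Secreted proteins are folded in the endoplasmic reticulum. Chaperones and quality control counted 26 lower and 2 higher of 37 tested, with a median of -0.45 and a read share of 1.12%, 1.13% and 1.13% under siC and 0.839%, 0.844% and 0.834% under siI1. P4HB, a disulfide isomerase, had an FPKM of 307, 327 and 314 under siC and 125, 152 and 153 under siI1, a log2 fold change of -1.15 (SE 0.09, adjusted p = 1.1e-04 from limma), and DNAJB9 fell (-1.23). CALR, the most abundant, changed by -0.30, which lost the threshold under median centring, without the filter and without siC_1, siC_2, siC_3 or siI1_2, and PDIA5 rose (0.38); SRPRA, at 0.15, turned to -0.01 under equal sums and lost the threshold under equal sums, in limma-voom, without the variance trend, without siI1_1 and siC_2 and without siC_1, siC_2, siC_3 or siI1_2. Of ATF4 and amino acid stress genes, there were 19 lower and 8 higher of 33 tested (24 lower and 5 higher under equal sums), with a median of -0.31. The amino acid transporter SLC38A2 was at an FPKM of 159, 149 and 160.1 under siC and 59.8, 44.5 and 45.9 under siI1 and fell, with a log2 fold change of -1.65 (SE 0.12, adjusted p = 6.5e-05 from limma), SLC7A1 fell (-1.64) and PSAT1, the most abundant, changed by -0.31, whereas NUPR1 and DDIT4 rose (2.38 and 1.44).

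Promoters of list members were searched for the binding sequence known for each list, from 250 bases before to 50 after the start (RefSeq, GRCh38.p14), on both strands; a match describes letters, not binding. The E2F sequence TTTCCCGC or TTTGGCGC stood in 20 of 38 promoters of replication genes (52.6%), against 3.06% of 15842 protein-coding promoters, and of these 20 genes 10 were lower and 5 higher. The cell cycle sequence TTTGAA stood in 37 of 51 promoters of mitosis genes (72.5%), against 12.1%, with 24 lower and 1 higher. The ER stress element, CCAAT and CCACG with 9 bases between, stood in 7 of 34 chaperone promoters (20.6%), against 0.12%, with 4 of them lower. The HNF1 sequence GTTAAT stood in 6 of 19 coagulation promoters (31.6%, 3 of the 6 genes higher), in 2 of 18 of complement (11.1%, 1 higher) and in 6 of 23 of plasma carriers (26.1%, 4 higher and 1 lower, SAA4, at -1.27), against 5.25%, with none lower in the first 2. The sterol sequence TCACNCCAC stood in 1 of 17 cholesterol promoters, that of SREBF2, against 1.17% of all, and TGATGNAAT in none of 27 promoters of ATF4 genes, against 0.625%. Of all tested members, 48.9% of replication, 59.3% of mitosis and 70.3% of chaperone genes were lower. Of coagulation, complement and plasma carrier genes, 52.2%, 44% and 66.7% were higher. Nothing is read from the calls of the genes that hold a sequence. The lists were drawn from known targets of these factors, so the shares are descriptions. Of 4 lists, the promoter of the called member with the largest change that held the sequence is shown, with the matches in capitals:
GINS3 (chr16:58392221-58392520, plus strand): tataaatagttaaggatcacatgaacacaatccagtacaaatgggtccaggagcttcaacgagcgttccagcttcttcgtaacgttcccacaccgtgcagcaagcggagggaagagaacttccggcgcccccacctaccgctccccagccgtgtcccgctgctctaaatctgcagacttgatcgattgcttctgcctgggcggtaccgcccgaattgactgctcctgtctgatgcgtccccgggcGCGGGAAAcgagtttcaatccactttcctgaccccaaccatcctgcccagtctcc
ECT2 (chr3:172750476-172750775, plus strand): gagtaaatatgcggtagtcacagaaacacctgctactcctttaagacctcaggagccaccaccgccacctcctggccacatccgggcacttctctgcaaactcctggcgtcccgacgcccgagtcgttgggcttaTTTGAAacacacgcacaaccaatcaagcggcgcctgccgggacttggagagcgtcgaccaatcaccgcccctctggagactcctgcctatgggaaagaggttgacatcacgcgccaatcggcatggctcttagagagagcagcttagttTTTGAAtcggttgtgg
XBP1 (chr22:28800520-28800819, minus strand): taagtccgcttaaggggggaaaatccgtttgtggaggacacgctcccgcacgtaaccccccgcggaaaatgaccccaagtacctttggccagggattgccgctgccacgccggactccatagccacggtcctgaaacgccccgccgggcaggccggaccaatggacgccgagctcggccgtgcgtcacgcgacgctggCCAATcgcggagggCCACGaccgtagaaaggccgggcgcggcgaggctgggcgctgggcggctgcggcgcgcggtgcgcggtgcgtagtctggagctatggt
F13B (chr1:197067211-197067510, minus strand): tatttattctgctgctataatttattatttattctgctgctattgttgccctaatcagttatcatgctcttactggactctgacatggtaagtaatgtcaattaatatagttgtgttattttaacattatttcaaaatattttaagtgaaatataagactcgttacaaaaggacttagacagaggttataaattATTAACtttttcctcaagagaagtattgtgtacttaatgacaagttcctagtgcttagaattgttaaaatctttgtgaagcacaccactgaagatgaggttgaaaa

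These 4 genes had log2 fold changes of -1.40 (GINS3), -1.32 (ECT2), -0.84 (XBP1) and 1.82 (F13B). XBP1, the transcription factor of the unfolded protein response, had an FPKM of 84.8, 87.3 and 86.9 under siC and 48.2, 48.3 and 47.9 under siI1, with no overlap between the groups. F13B, the secreted clotting subunit, was at an FPKM of 2.37, 2.04 and 2.71 under siC and 10.7, 7.43 and 7.94 under siI1, and each siI1 library exceeded each siC library.

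Of NF-kB targets and chemokines, there were 12 lower and 3 higher of 22 tested, with a median of -0.62, or -0.29 with a pseudocount of 1. The chemokine CXCL8 had an FPKM of 35.4, 35.3 and 35 under siC and 3.97, 3.47 and 3.55 under siI1, a log2 fold change of -3.23 (SE 0.07, adjusted p = 1.4e-06 from limma), and the adhesion receptor ICAM1 fell (-2.73). NFKBIA, the inhibitor and most abundant member, rose (0.44) and CCL16, a chemokine of the liver, (0.64). Interferon response genes counted 11 lower and 4 higher of 27 tested, with a median of -0.22, OAS1 fell (-1.74) and IFI27 (-2.05), and BST2, the most abundant, was at an FPKM of 104, 119.6 and 113 under siC and 186, 240.3 and 259.8 under siI1 and rose, with a log2 fold change of 1.02 (SE 0.13, adjusted p = 8.4e-04 from limma), beside IFIT1 at 1.09.

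Collagens and matrix proteins had 7 lower and 18 higher of 33 tested and a median of 0.49, while their read share was 2%, 1.79% and 1.94% under siC and 1.57%, 1.36% and 1.37% under siI1. The most abundant member, SPP1 (osteopontin), was at an FPKM of 805, 856 and 820.0 under siC and 369, 395 and 402 under siI1 and fell, with a log2 fold change of -1.09 (SE 0.08, adjusted p = 7.1e-05 from limma), and the protease inhibitor TIMP1 fell (-1.68). COL16A1 had an FPKM of 2.08, 2.25 and 2.34 under siC and 23.5, 24.2 and 23.4 under siI1, without overlap, and LOXL2 fell (-1.36). Of actin, SRF and YAP targets, there were 13 lower and 4 higher of 30 tested, with a median of -0.18, or -0.12 without siI1_1. SRF itself fell (-1.36) and AXL (-1.54); ACTA2 was at an FPKM of 26.6, 26.9 and 26.4 under siC and 85.6, 105 and 109.7 under siI1 and rose, with a log2 fold change of 1.90 (SE 0.09, adjusted p = 1.9e-05 from limma), with CNN3 at 0.74 while ACTB, the most abundant, had one of -0.05 (SE 0.11, adjusted p = 0.77 from limma), not past the threshold, its sign differing between scalings. Epithelial junction and keratin genes counted 17 lower and 6 higher of 34 tested, with a median of -0.28, or -0.42 with the stricter filter and -0.45 without siI1_1 and siC_2. Claudin-2 (CLDN2) was at an FPKM of 5.19, 5.64 and 6.14 under siC and 0.325, 0.302 and 0.505 under siI1 and fell, with a log2 fold change of -3.61 (SE 0.19, adjusted p = 2.2e-05 from limma), the collagen receptor ITGA2 fell (-1.71) and KRT18, the most abundant, (-1.11), whereas CDH2 rose (1.16) and CGN (1.53).

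Of 79 tested genes of cytosolic ribosomal proteins, 66 were higher and 13 did not pass the threshold, with a median of 0.50. Their read share was 4.71%, 5.26% and 4.74% under siC and 6%, 7.24% and 7.31% under siI1. All siI1 libraries exceeded all siC libraries, siI1_1 by least; without siI1_1, 73 were higher with a median of 0.65, and without siI1_1 and siC_2, 74 with 0.70, while 47 were higher without siC_1, 66 without siC_2, 46 without siC_3, 47 without siI1_2 and 51 without siI1_3, with medians of 0.44 to 0.57. RPS19 was at an FPKM of 169, 196 and 176 under siC and 290.4, 382 and 400.0 under siI1 and rose, with a log2 fold change of 0.98 (SE 0.13, adjusted p = 0.0011 from limma), RPS9 rose (0.88) and RPS12, the most abundant, had a log2 fold change of 0.25 (SE 0.12, adjusted p = 0.13 from limma), not past the threshold, passing it in 3 of the alternatives. These genes have many processed pseudogenes, which can take reads from them. Nuclear subunits of oxidative phosphorylation had 8 lower and 20 higher of 75 tested and a median of 0.20, or 0.30 without siI1_1 and siC_2, with 41 higher without siI1_1, 48 without siI1_1 and siC_2, 9 without siC_1, siC_3, siI1_2 or siI1_3, 12 without the variance trend, 32 under median centring, and 15 lower and 12 higher under equal sums, where the balance turned. NDUFV1 and NDUFA3 rose (0.64 and 2.08). NDUFA3 was low, at an FPKM of 0.286, 0.148 and 0.137 under siC and 1.11, 0.943 and 1.27 under siI1, from 5 to 42 reads per library. COX4I1 was at an FPKM of 59.3, 69.3 and 62.2 under siC and 32.7, 39.8 and 40.1 under siI1 and fell, with a log2 fold change of -0.76 (SE 0.10, adjusted p = 9.5e-04 from limma), and UQCRC2 and ATP5B fell (-0.52 and -0.37). The 13 mitochondrially encoded mRNAs were listed at 0 in every library, and no fold change is given for them.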

How the data were processed

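The authors clipped reads with Cutadapt 1.14, aligned them to hg38 with HISAT2 2.1.0, summarized them per gene with featureCounts and normalized with TMM in edgeR 3.30.3. The deposited header names no unit; values times gene length, divided by 1 scale per library estimated from the values themselves, came out as whole reads (tolerance 0.01 read) in 100% of values above 0, so the deposited values were read as FPKM. Deposited columns with the authors' log2 fold changes, p-values and FDR were not used. The libraries were strand-specific; the strand setting of the counting is not given in the sources used here.

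Filtered genes were compared by limma 3.58.1 (R 4.3.3) on log2(FPKM + 0.1), which understates changes of low genes, with a trended variance; p-values were adjusted by Benjamini-Hochberg across every gene tested, at 0.05. For 3 libraries a group, exact permutations reach no two-sided p under 0.1. Genes tested in both lines (15362), joined by identifier, entered an interaction contrast. The members and the 36 gene and 6 marker lists were chosen with earlier results of these data known. Named were IGF2BP1 and its paralogs; per list, the 2 called genes with the largest change each way at a mean FPKM of 1 or more, and the most abundant; and over all protein-coding genes 8 each way at 10 or more; withheld genes are not reported here. Promoters came from RefSeq. Alternatives were pseudocounts of 0.01 and 1, other filters and scalings, limma-voom on recovered reads, no variance trend, a replicate block, stricter thresholds and left-out libraries. Python 3.11.15, NumPy 2.4.6, pandas 2.3.3 and Matplotlib 3.10.9 were used.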

Additional observations from a re-analysis of the deposited data

Results flagged for a closer look

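The change upon knockdown differed between Hep-G2 and BE(2)-C, by the interaction contrast of limma at an adjusted p below 0.05, in 96 of the 119 named genes tested in both lines, and in 25 of them the genes passed the threshold in opposite directions. Most named genes were picked by the size of their change in Hep-G2, which is part of this difference, so nothing is read from that share. The values that follow, for the genes reported here, are the log2 fold change of Hep-G2 minus that of BE(2)-C; the siRNA concentration also differed between the lines, and its part was not tested.

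Genes named from fatty acid and triglyceride synthesis differed by 1.89 for ACSS2, 1.17 for GPAM, -1.20 for LPIN2 and 0.89 for SCD. For those of actin, SRF and YAP target genes, it was 2.77 for ACTA2, -1.29 for AXL, 0.52 for CNN3 and -0.68 for SRF. Genes named from genes with the largest changes differed by -3.70 for AKAP12, -3.98 for SPRY4, -3.45 for TGFBR3 and 4.13 for WNT11. For those of glycolysis and glucose uptake, it was 1.91 for ALDOC, -3.40 for SLC2A1 and 1.98 for SLC2A3. Genes named from apolipoproteins and lipoprotein handling differed by -2.65 for APOM, and of the 12 genes of this list tested in both lines the difference was positive for 8 and negative for 2, against 2487 and 3049 of 11084 protein-coding genes. For those of p53 target genes, it was 1.44 for BBC3, 1.39 for BTG2 and 2.81 for CDKN1A. Genes named from hepatoblast and oncofetal markers differed by 0.83 for BEX1, 2.05 for IGF2, -1.52 for LIN28B and -1.70 for SOX4. For those of complement proteins, it was 2.03 for C1R, -3.07 for C7 and 1.53 for SERPING1. Genes named from hypoxia response genes differed by 1.19 for CA9 and -0.93 for INSIG2. For those of ERK output and feedback genes, it was 0.26 for CCND1, -3.15 for DUSP6, -2.61 for EGR1 and 1.67 for JUN. Genes named from epithelial junctions and keratins differed by 0.65 for CDH2 and 1.36 for CGN. For those of hepatocyte transcription factors, it was 3.40 for CEBPA and -2.10 for ONECUT2. Genes named from mitosis genes differed by 0.46 for CENPH, 0.34 for CKS2, -1.30 for ECT2, -0.47 for INCENP and 0.49 for NCAPD2. For those of collagens and matrix proteins, it was 3.52 for COL16A1, 3.63 for OLFML3 and -1.52 for TIMP1. Genes named from amino acid catabolism and one-carbon metabolism differed by -1.18 for CTH and 2.63 for GNMT. For those of ATF4 and amino acid stress genes, it was 0.84 for DDIT4, -0.37 for PSAT1, -1.54 for SLC38A2 and -1.52 for SLC7A1.

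Genes named from Wnt target and feedback genes differed by 0.28 for DKK1, -1.61 for LGR5 and 0.69 for TCF7. For those of ER chaperones and ER quality control, it was -1.36 for DNAJB9, -0.50 for P4HB and 0.26 for PDIA5. Genes named from growth factor receptors and insulin/IGF axis differed by 1.19 for ERBB2, -1.63 for HBEGF and -1.15 for IGFBP4. For those of iron and heme handling, it was 0.45 for FTL, 4.13 for HAMP, -1.0 for SLC39A14 and -1.61 for TFRC. Genes named from gluconeogenesis and glycogen differed by -1.47 for GBE1 and -0.28 for PYGB. For those of DNA replication and G1/S genes, it was -0.88 for GINS3, 0.44 for PCNA, 1.04 for POLE2, 0.78 for RPA3 and -0.52 for RRM2. Genes named from urea cycle and nitrogen handling differed by 0.84 for GLUD1 and -0.85 for GOT1. For those of lysosomal hydrolases and membrane proteins, it was 1.04 for GM2A, -1.35 for IDS, 1.37 for NEU1, 0.26 for PSAP and -0.76 for SMPD1. Genes named from antioxidant and NRF2 target genes differed by 1.01 for GPX3, -3.07 for SLC7A11 and -1.50 for TXNRD1. For those of fatty acid oxidation and ketogenesis, it was 1.38 for HADH, 0.45 for HADHA, -0.78 for PPARGC1A and 1.40 for SLC25A20. Genes named from interferon response genes differed by -1.56 for IFI27 and -1.39 for OAS1. For those of the paralogs, it was -0.45 for IGF2BP3. Genes named from cholesterol synthesis differed by 2.08 for MVD and 2.08 for MVK. For those of nuclear oxidative phosphorylation subunits, it was 0.87 for NDUFV1. Genes named from NF-kB targets and chemokines differed by 0.36 for NFKBIA. For those of cytosolic ribosomal proteins, it was 0.89 for RPS19. Genes named from bile acid synthesis and transport differed by 1.66 for SLC51A and -3.29 for SLC51B.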

How the results depend on the processing

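Requiring a log2 change of 1 or more left 1340 lower and 1571 higher genes, 977 and 951 of them protein-coding, and an adjusted p below 0.01 left 2994 lower and 2727 higher, as stricter rules must. Leaving out 1 library at a time gave 3469 to 4973 lower and 3326 to 4574 higher genes, and 3075 to 4327 and 2593 to 3586 protein-coding ones. By limma-voom on the recovered reads, 4321 protein-coding genes were lower and 3582 higher. Of 167 named genes past the threshold, 156 kept direction and call in every other fit and scaling and without each library; 158 had an adjusted p below 0.01 and 122 a log2 change of 1 or more. SRPRA turned to -0.014 under equal sums of FPKM.

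Some medians changed sign, most of them near 0, and the cause was not tested. Under equal sums, hepatocyte transcription factors came to -0.106, complement to -0.056 and lysosomal genes to -0.062. Median centring gave 0.019 for urea cycle, 0.057 for antioxidant and 0.085 for hypoxia genes. The stricter filter gave -0.011 for hepatocyte factors and 0.027 for gluconeogenesis, which was -0.236 with the filter of 0.1 and -0.071 with a pseudocount of 1. That pseudocount also moved medians from -0.34 to -0.08 for Wnt, -0.62 to -0.29 for NF-kB, 0.29 to 0.20 for amino acid and 0.29 to 0.19 for conjugation genes, and the stricter filter from 0.36 to 0.74 for coagulation, 0.11 to 0.17 for complement and -0.28 to -0.42 for epithelial genes. With 1 library left out, medians ran from -0.090 to 0.001 for urea cycle, -0.078 to 0.022 for antioxidant and -0.024 to 0.039 for hypoxia genes; without siI1_1 and siC_2, chosen after seeing the data, antioxidant genes came to 0.066.

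With the replicate block, 4502 genes were lower and 4318 higher, 3916 and 3262 of them protein-coding. Pairs of siC and siI1 libraries with the same number correlated at 0.063, 0.035 and -0.006, and the other pairs at -0.09 to 0.062. With 3 libraries a group, these values cannot tell whether libraries of the same number shared a culture or a batch, which was not tested. Depth limits low genes such as KNG1, with 20 reads in its lowest library.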

Other observations

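Several gene groups were not described above. Wnt target and feedback genes had 9 lower and 6 higher of 23 tested and a median of -0.34, or -0.08 with a pseudocount of 1, -0.21 without siC_3, -0.20 without siI1_1 and -0.19 without siI1_1 and siC_2; the secreted Wnt antagonist DKK4 was at an FPKM of 11.9, 10.7 and 12.1 under siC and 0.744, 0.845 and 1.34 under siI1 and fell, with a log2 fold change of -3.47 (SE 0.20, adjusted p = 3.0e-05 from limma), LGR5, a receptor of stem cells, fell (-0.90), and TCF7 and SLC1A2 rose (1.07 and 1.79). DKK1, the most abundant, changed by -0.37. Hypoxia response genes counted 6 lower and 7 higher of 20 tested (9 lower and 6 higher under equal sums), with a median of -0.01 whose sign differed between settings, -0.01 without siC_1, 0.00 without siC_2, 0.00 without siC_3, -0.02 without siI1_1, 0.04 without siI1_3 and -0.01 without siI1_1 and siC_2. The read share of the hypoxia list was 0.33%, 0.333% and 0.341% under siC and 0.21%, 0.191% and 0.191% under siI1. The share fell while the median stayed near 0, and SLC2A1 was the most abundant member. Beside SLC2A1, INSIG2 fell (-1.11), and CA9 and the hormone gene EPO rose (2.04 and 1.52). Lysosomal genes had 9 lower and 12 higher of 35 tested (14 lower and 10 higher under equal sums) and a median of 0.10, or 0.18 without siI1_1 and 0.20 without siI1_1 and siC_2, with 8 (without siC_3) to 15 (without siI1_1) higher when 1 library was left out: NEU1 and GM2A rose (1.06 and 0.99), IDS and SMPD1 fell (-1.27 and -1.07), and PSAP, the most abundant, at 0.31, lost the threshold without siC_1, siC_3 or siI1_2.

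Of 1470 tested lincRNA genes, 115 (7.82%) were lower and 283 (19.3%) higher, with a median of 0.32 on the log2 scale, and of 2126 antisense genes 159 (7.48%) were lower and 367 (17.3%) higher, with a median of 0.21. The libraries were strand-specific, but the strand setting of the counting is not given in the sources used here, so reads of antisense genes and their partners may not be told apart. The median siC FPKM was 0.382 for lincRNA, 0.454 for antisense and 5.77 for protein-coding genes, and the median length 843, 737 and 4847 nt. Of the 3206 shortest protein-coding genes 19.5% were lower and 34.6% higher, with a median of 0.17, and of the 3206 longest 38.4% and 17.6%, with -0.19; the part of length in the lincRNA and antisense counts was not tested. Among protein-coding genes with a mean siC FPKM under 1, 202 of 2326 were lower and 581 higher, those at 1 to 10 counted 1940 and 1435 of 6032, and those at 10 to 100 counted 1674 and 1082 of 4112. At an FPKM of 100 and more, 99 of 353 were lower and 149 higher. The classes were formed on the siC values that also enter the fold change, and are given as a description.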
